A study of Mus musculus with 6 samples.

Results

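The mouse genome carries the complement protease genes C1r and C1s in duplicate, as C1ra and C1rb and as C1s1 and C1s2, in a cluster on chromosome 6. Their RNA was measured in the prostates of 6 male C57BL/6 mice. The 3 mice of the T + E2 group carried 1 subcutaneous pellet of testosterone and oestradiol, renewed each month over 12 weeks, and the 3 mice of the CON group had the skin incision alone. Each mouse gave 1 bulk RNA library of prostate tissue. The mice were young adults at the start, and the lobes sampled are not given in the sources used here. The 4 symbols occupied 5 of the 34745 rows of the gene table, since C1s2 was listed under a second identifier. The genes were chosen by their counts in this same comparison, so their values are a description and carry no test. Between 14816146 and 16555549 reads were counted on genes per mouse.

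C1r and C1s are the serine proteases of C1, the complex that starts the classical pathway of complement. C1q recognises antibody bound to a surface, C1r then activates itself and cleaves C1s, and C1s cleaves C4 and C2. In mice C1ra and C1s1 are the copies known from liver and many other tissues, whereas C1rb and C1s2 are known from the male reproductive tract.

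The cluster ran, in the order of the chromosome, C1ra (ENSMUSG00000055172, chr6:124512405-124523443, plus strand), C1s1 (ENSMUSG00000038521, chr6:124530345-124542359, minus strand), C1rb (ENSMUSG00000098470, chr6:124570294-124581171, plus strand) and C1s2 (ENSMUSG00000079343, chr6:124624625-124636085, minus strand). Coordinates are those of the deposited table, on GRCm38 judged from their match with release M21 of the GENCODE annotation. Each C1r copy thus lay with its 3′ end towards the 3′ end of the next C1s copy. In that annotation C1ra, C1rb and C1s2 have 11 exons and C1s1 has 12. The coding sequences span 707 codons in C1ra, 706 in C1rb and 694 in both C1s copies, the stop codon included.

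The copies are alike enough that the origin of a read matters for every value given here. The coding sequences of C1ra and C1rb differed at 42 of 2118 aligned bases (98.0% identity), and the longest stretch without a difference was 757 bases. C1s1 and C1s2 differed at 90 of 2082 bases (95.7% identity), with a longest identical stretch of 229 bases. Between C1r and C1s the identity was 54.4% for C1ra with C1s1 and 54.7% for C1rb with C1s2. The 60 coding bases in which the copies of each pair differ most are shown because reads over them can be told apart. Capitals mark the bases that differ between the copies, 11 in the C1r pair and 17 in the C1s pair, and positions count from the first base of the coding sequence.
C1ra, coding bases 1798 to 1857: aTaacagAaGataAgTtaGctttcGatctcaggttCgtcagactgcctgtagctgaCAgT
C1rb, coding bases 1795 to 1854: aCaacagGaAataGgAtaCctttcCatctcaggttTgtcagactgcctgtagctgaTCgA
C1s1, coding bases 1484 to 1543: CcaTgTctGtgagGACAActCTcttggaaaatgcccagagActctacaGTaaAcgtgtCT
C1s2, coding bases 1484 to 1543: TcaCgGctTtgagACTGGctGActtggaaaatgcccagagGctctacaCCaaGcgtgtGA

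Away from such stretches a read can fit both copies. Of all 100-base windows of the transcript, 34.5% of those of C1ra also occurred in C1rb and 42.7% of those of C1rb also occurred in C1ra. In the C1s pair these shares were 7.90% for C1s1 and 8.78% for C1s2. With windows of 150 bases they were 26.3% and 32.6% in the C1r pair and 2.86% and 3.18% in the C1s pair. The C1r pair therefore shared more sequence than the C1s pair at each window length. Outside the cluster copies, the pseudogene Gm18840 was the only annotated gene that shared a 50-base window with these transcripts (with C1ra and C1rb), and it had 0 counts in all 6 mice. How reads that fit both copies were counted is not given in the sources used here, and whether reads of one copy were counted on the other was not tested.

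**Figure D1:**
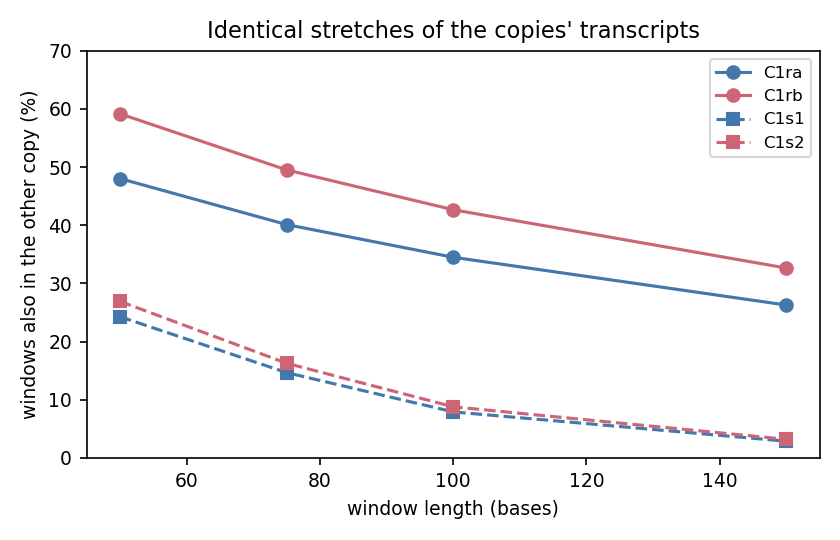
Share of the windows of each transcript (%, vertical axis) that also occur in the transcript of the other copy, against the window length in bases (horizontal axis), with 1 line for each of the 4 genes. The lines of C1ra and C1rb lie above those of C1s1 and C1s2 at each length, and at 100 bases they stand at 34.5% and 42.7% against 7.90% and 8.78%.

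The promoters of the copies were compared because the copies of a pair differed in RNA level. The 250 bases before and 50 bases after the RefSeq start sites (GRCm38.p6) are printed 5′ to 3′ along the strand of each gene. Capitals mark the stretch that aligned between C1ra and C1rb, 148 bases with 93.9% identity, which lay from -99 to +49 in C1ra and from -250 to -102 in C1rb. It ran to the end of the C1ra window and from the start of the C1rb window, so its full length was not measured. Small letters mark bases without a partner in the other window, and sequence beyond the windows was not compared. The same sequence thus lay at a different distance from the annotated start in each copy. For C1ra and C1rb the start of the gene in the deposited table lay inside the printed window, upstream of the RefSeq start. In the C1s pair the best alignment within these windows was 11 bases, and no base is in capitals.
C1ra promoter, chr6:124512371-124512670, plus strand: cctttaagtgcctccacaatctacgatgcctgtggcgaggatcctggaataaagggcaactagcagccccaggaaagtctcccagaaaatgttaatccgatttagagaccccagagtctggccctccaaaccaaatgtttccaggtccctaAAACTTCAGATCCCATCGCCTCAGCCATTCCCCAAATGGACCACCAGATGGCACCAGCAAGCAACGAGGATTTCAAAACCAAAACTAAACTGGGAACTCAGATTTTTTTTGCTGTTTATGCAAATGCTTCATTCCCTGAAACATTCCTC
C1rb promoter, chr6:124570180-124570479, plus strand: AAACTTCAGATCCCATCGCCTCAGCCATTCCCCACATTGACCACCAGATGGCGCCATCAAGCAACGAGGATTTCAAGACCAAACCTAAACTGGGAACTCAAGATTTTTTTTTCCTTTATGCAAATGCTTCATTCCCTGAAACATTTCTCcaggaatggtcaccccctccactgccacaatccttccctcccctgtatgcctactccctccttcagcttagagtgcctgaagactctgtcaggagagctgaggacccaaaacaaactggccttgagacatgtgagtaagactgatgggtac
C1s1 promoter, chr6:124542310-124542609, minus strand: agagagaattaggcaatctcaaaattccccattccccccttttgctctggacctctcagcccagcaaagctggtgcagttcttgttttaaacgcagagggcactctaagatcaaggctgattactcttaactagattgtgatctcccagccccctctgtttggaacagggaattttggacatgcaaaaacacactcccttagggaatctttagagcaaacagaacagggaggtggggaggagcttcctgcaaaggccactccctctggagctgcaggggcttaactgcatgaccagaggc
C1s2 promoter, chr6:124636036-124636335, minus strand: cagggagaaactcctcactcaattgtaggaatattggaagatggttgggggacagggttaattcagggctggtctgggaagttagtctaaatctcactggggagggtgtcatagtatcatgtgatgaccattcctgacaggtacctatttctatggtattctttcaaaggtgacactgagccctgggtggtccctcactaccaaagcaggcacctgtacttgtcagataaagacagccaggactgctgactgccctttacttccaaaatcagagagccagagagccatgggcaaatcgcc

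Motifs were searched on both strands of these windows. The oestrogen receptor motif GGTCANNNTGACC and the TATA box TATAAA were in none of the 4 promoters, and in 0.0707% and 13.6% of 32544 RefSeq promoters of this length. Neither was in the window of a second RefSeq start of C1s1 (chr6:124542272-124542571, minus strand), which is not printed. These matches describe letters in a window, and nothing about binding was measured.

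C1rb had the highest RNA level of the 4 genes in the CON group and was close to absent in the T + E2 group. Its counts were 18961, 16315 and 22735 in the CON mice against 38, 17 and 70 in the T + E2 mice. As TMM-normalised CPM (counts scaled to library size), these were 1256, 1072 and 1429 against 2.63, 1.04 and 4.67. The groups lay far apart, although the highest T + E2 mouse had several times the level of the lowest. The mean was 1252 ± 178.7 CPM in the CON group, compared with 2.78 ± 1.82 in the T + E2 group (SD, n = 3 in each), which is 450.8-fold lower. The fitted log2 fold change was -8.82 (standard error 0.48), the second lowest of the 15580 genes tested. Ranked by the authors' FPKM, a level per length, C1rb stood at 60 of 34745 rows in the CON group and at 11700 in the T + E2 group. In these bulk samples fewer cells that express a gene and less RNA per cell cannot be told apart.

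C1s2, the C1s copy next to C1rb, had the same pattern at a lower level. Its counts were 2722, 2742 and 3457 in the CON mice against 10, 9 and 9 in the T + E2 mice. This corresponded to 180.3, 180.2 and 217.4 CPM against 0.692, 0.548 and 0.601 CPM. The 3 T + E2 mice were close to each other and all were far below the CON mice. The mean level was 192.6 ± 21.4 CPM in the CON group, compared with 0.613 ± 0.0727 in the T + E2 group, 314.0-fold lower, at a log2 fold change of -8.28 (standard error 0.17), the third lowest of all genes tested. The standard error of C1s2 rests on 9 or 10 counts per T + E2 mouse and is not a sign of high precision. Another count model, DESeq2, gave a standard error of 0.30 at a log2 fold change of -8.30. By FPKM the rank of C1s2 moved from 432 to 15564. For scale, 3 counts corresponded to 0.181 to 0.202 CPM in these libraries.

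The second row named C1s2 (ENSMUSG00000107554, chr6:124625166-124636049) lay inside the first and is absent from release M21. It had 2, 5 and 2 counts in the CON mice against 0 counts in each T + E2 mouse, and did not pass the filter on low counts. No fold change is given for it, since the counts were close to the limit of 3 taken for a count of 0. Whether reads that fit both C1s2 rows were left out of the counting was not tested.

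C1ra, the copy next to C1s1, was lower in the T + E2 group by a small amount. Its counts were 1039, 851 and 1025 in the CON mice, compared with 661, 894 and 646 in the T + E2 mice. In CPM these were 68.8, 55.9 and 64.4 against 45.7, 54.4 and 43.1. The highest T + E2 mouse came within the spread of replicates of the lowest CON mouse, but the groups did not overlap. The means were 63.1 ± 6.55 and 47.8 ± 5.93 CPM, and the log2 fold change was -0.40 (standard error 0.12).

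C1s1 did not follow its neighbour. Its counts were 1532, 574 and 589 in the CON mice against 1704, 1131 and 1779 in the T + E2 mice, or 101.5, 37.7 and 37.0 CPM against 117.9, 68.9 and 118.7 CPM. CON mouse 1 stood apart from the other CON mice and lay inside the range of the T + E2 mice, so the groups overlapped. The means were 58.7 ± 37.0 and 101.8 ± 28.5 CPM, and the log2 fold change was 0.79 (standard error 0.40). Without CON mouse 1 it was 1.44 (standard error 0.25). Of 6 fibroblast markers, Dcn, Lum and Pdgfra had their highest CON level in that mouse and Col1a1, Col1a2 and Col3a1 their lowest, and their sum was 1730 CPM there, beside 1602 and 1693 CPM in the other CON mice. The part of these cells in the value was not tested.

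**Figure D2:**
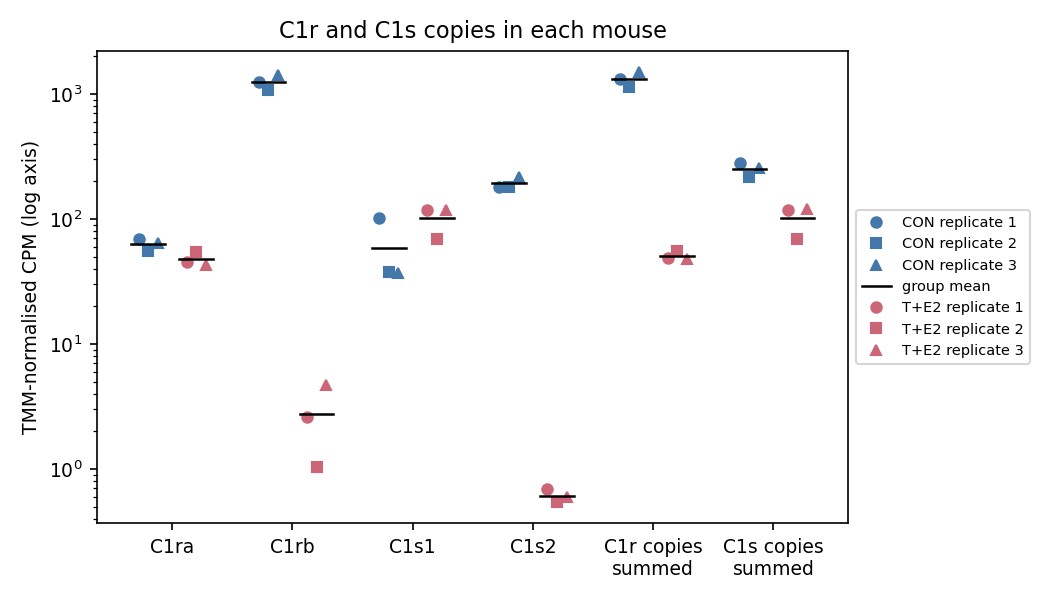
TMM-normalised CPM (vertical log axis) of the C1r and C1s copies and of their sums in each of the 3 CON and 3 T + E2 mice, shown as points with a line at the group mean. C1rb falls from between 1072 and 1429 CPM in the CON mice to between 1.04 and 4.67 in the T + E2 mice and C1s2 from between 180.2 and 217.4 to between 0.548 and 0.692, whereas C1ra and C1s1 stay between 37.0 and 118.7 CPM in all mice.

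The order of the levels differed between the groups. Per length, the CON means were 521.1 ± 66.0 FPKM for C1rb, 73.1 ± 6.84 for C1s2, 21.4 ± 2.15 for C1ra and 11.7 ± 7.42 for C1s1. The last pair overlapped, as C1s1 in CON mouse 1 (20.2 FPKM) exceeded C1ra in CON mouse 2 (19.2 FPKM). In the T + E2 group C1s1 (19.6 ± 5.47 FPKM) and C1ra (15.8 ± 2.01) came first with overlapping values, followed by C1rb (1.13 ± 0.766) and C1s2 (0.227 ± 0.0220). Of the 4 genes that passed the filter, C1ra, C1rb and C1s2 had every T + E2 mouse below every CON mouse, as did 20.7% of the 15580 genes tested. Differentially expressed genes (DEGs, adjusted p under 0.05 and absolute log2 fold change over 1 in edgeR) made up 7.64% of the tested genes, 3.38% lower and 4.27% higher in the T + E2 group, and C1rb and C1s2 were among those that were lower. Since the contrast chose these genes, nothing is read from the counts.

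Adding the copies of a pair removes the question of which copy a read was assigned to, as long as the read was counted at all. Summed C1r was 1324, 1128 and 1494 CPM in the CON mice, compared with 48.4, 55.5 and 47.8 CPM in the T + E2 mice. The sum was 26.0-fold lower, a log2 fold change of -4.70 (standard error 0.15). Summed C1s was 281.9, 218.2 and 254.5 CPM in the CON mice against 118.6, 69.4 and 119.3 CPM in the T + E2 mice, 2.46-fold lower, at a log2 fold change of -1.30 (standard error 0.21). Neither sum overlapped between the groups. The difference was smaller for the C1s sum, in which C1s1 held part of the CON level and a higher mean in the T + E2 group.

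The copy that held most of the counts changed in both pairs. Of the C1r counts, C1rb held 94.8%, 95.0% and 95.7% in the CON mice, with exact 95% binomial (Clopper-Pearson) intervals of 94.5 to 95.1%, 94.7 to 95.4% and 95.4 to 95.9%. In the T + E2 mice it held 5.44% (3.88 to 7.39%), 1.87% (1.09 to 2.97%) and 9.78% (7.70 to 12.2%). The intervals cover counting error only, and the T + E2 mice differed from each other by more than that. The mean share in the T + E2 group was 5.69 ± 3.96%, and 3.65% without T + E2 mouse 3.

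C1s2 held 64.0% (62.5 to 65.4%), 82.7% (81.4 to 84.0%) and 85.4% (84.3 to 86.5%) of the C1s counts in the CON mice. The lowest of these was CON mouse 1, in which C1s1 was high. In the T + E2 mice its share was 0.583% (0.280 to 1.07%), 0.789% (0.362 to 1.49%) and 0.503% (0.230 to 0.953%), and these intervals overlapped. Of the C1s counts of the T + E2 mice, nearly all thus lay on C1s1.

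The proportion of C1r to C1s also differed between the groups. Summed C1r FPKM divided by summed C1s FPKM was 6.16, 6.12 and 6.86 in the CON mice, compared with 0.704, 1.37 and 0.699 in the T + E2 mice. C1r was above C1s in each CON mouse and below it in all T + E2 mice except mouse 2. The means were 6.38 ± 0.415 and 0.923 ± 0.384. Among the copies, the ratio of C1rb to C1s2 was 7.63, 6.51 and 7.20 in the CON mice against 4.16, 2.07 and 8.52 in the T + E2 mice, where it rests on 9 or 10 C1s2 counts per mouse. The ratio of C1ra to C1s1 was 1.16, 2.54 and 2.99 in the CON mice, compared with 0.665, 1.36 and 0.623 in the T + E2 mice.

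These ratios depend on the length given to each gene. The length that the authors' FPKM imply for C1s1 was 5114 bases, against 2946 bases for its longest coding transcript in release M21. With the lengths of the longest coding transcripts the means were 5.82 in the CON group against 0.535 in the T + E2 group, with no T + E2 mouse above 0.792. With the number of 100-base windows found in no other copy taken as the length, they were 9.27 and 0.758, and T + E2 mouse 2 was at 1.12. The CON mean was above 1 and the T + E2 mean below 1 with each of these lengths.

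**Figure D3:**
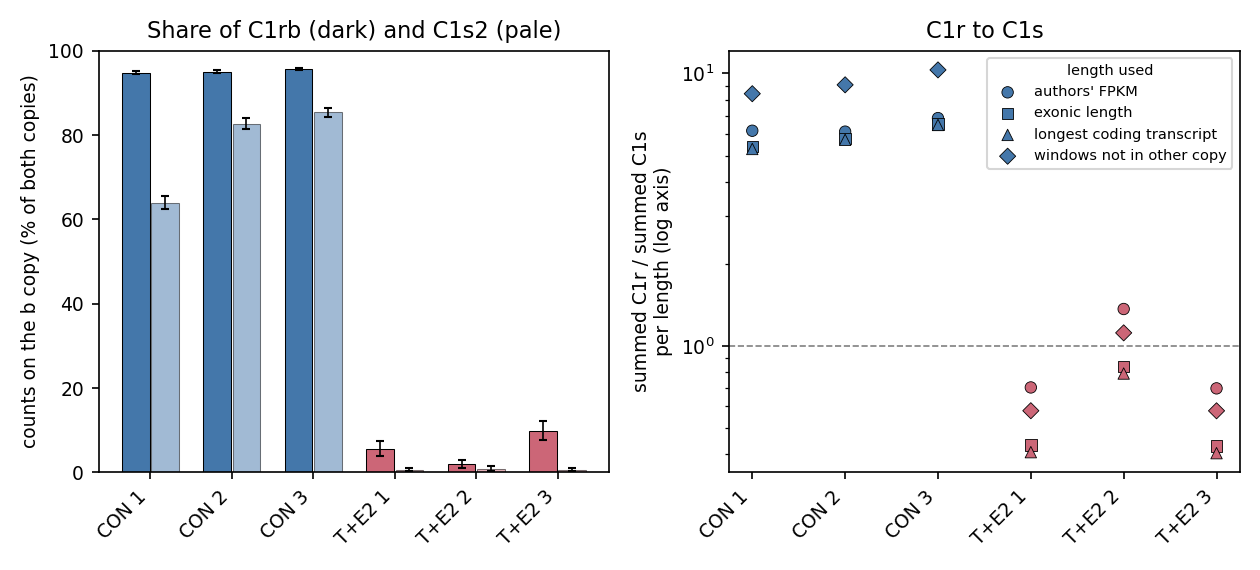
Left, the percentage of counts on the b copy (C1rb of both C1r copies, C1s2 of both C1s copies) in each mouse, with exact 95% binomial intervals. Right, the ratio of summed C1r to summed C1s per length in each mouse (log axis) with a dashed line at 1, by the lengths named in the legend. The b copies hold between 64.0 and 95.7% of counts in CON mice but 0.503 to 9.78% in the T + E2 mice.

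Markers of the prostate lobes differed between the groups in both directions. Over all tested genes, 3.38% were DEGs with a lower level and 4.27% DEGs with a higher level in the T + E2 group. All 3 markers of anterior and dorsal prostate epithelium were DEGs in edgeR and lower in the T + E2 group, namely Tgm4 (prostate transglutaminase, log2 fold change -2.91, adjusted p = 0.000158), Pbsn (probasin, -3.29, adjusted p = 2.45e-05) and 9530053A07Rik (-2.87, adjusted p = 0.00107). Their summed level was 111311 to 151870 CPM in the CON mice, compared with 11051 to 25527 CPM in the T + E2 mice. The lateral marker Msmb was higher (log2 fold change 1.10, adjusted p = 0.00122 in edgeR). Of 3 ventral markers, Sbpl was lower as a DEG (-1.80), Spink1 was higher without reaching the fold of a DEG (0.72, adjusted p = 0.0252 in edgeR), and Sbp overlapped between the groups (-0.77, adjusted p = 0.115).

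C1rb and C1s2 were lower also per marker read. C1rb had 51.5, 57.0 and 52.4 counts per 1000 Tgm4 counts in the CON mice against 0.635, 0.433 and 1.64 in the T + E2 mice. The CON mice lay within a narrow range on this scale, 53.7 ± 2.94, and the T + E2 mean of 0.901 ± 0.644 was 59.5-fold lower. C1s2 had 7.40, 9.58 and 7.97 counts per 1000 Tgm4 counts in the CON mice, compared with 0.167, 0.229 and 0.210 in the T + E2 mice, 41.1-fold lower. Against Pbsn and 9530053A07Rik the difference was 48.5-fold and 61.4-fold for C1rb and 31.5-fold and 38.4-fold for C1s2. These markers were themselves DEGs with a lower level, so a count per marker read is not a count per cell. The part of anterior and dorsal cells in the values was not tested.

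Other tissue markers gave the following values beside the copies. Of the 6 fibroblast markers 0 were DEGs and 0 had an adjusted p under 0.05 in edgeR, and their summed level was 1602 to 1730 CPM in the CON mice against 1675 to 2030 CPM in the T + E2 mice. Of 5 macrophage markers, Mrc1 (log2 fold change 1.14) and Cd163 (1.41) were DEGs, and the summed level was 118.3 to 164.2 against 187.5 to 307.1 CPM. The 5 hepatocyte markers together had 0.464 to 1.19 CPM in the CON mice, compared with 2.60 to 6.09 CPM in the T + E2 mice, Serpina1a had 0 counts in all mice, and Alb was a DEG at this low level (log2 fold change 4.71). Among luminal markers, Epcam (1.18) was a higher DEG and Cd24a (-1.30) a lower one, and the proximal and urethral marker Psca was a higher DEG (5.72). The basal and smooth muscle lists held 0 DEGs of 3 and 0 of 5, counts too small to read against 7.64% of all tested genes. At an adjusted p under 0.05 in edgeR, the basal marker Trp63 was higher (0.57, adjusted p = 0.0108), and the smooth muscle markers Acta2 (-0.50, adjusted p = 0.0137) and Des (-0.38, adjusted p = 0.044) were lower. The part of these cells in the levels of C1r and C1s was not tested.

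The library of mouse 2 in each group held seminal vesicle transcripts, at a higher summed level in the CON mouse. The 7 seminal vesicle markers summed to 10322 CPM in CON mouse 2 and to 642.7 CPM in T + E2 mouse 2, against 0.629 to 4.11 CPM in the other mice. Without CON mouse 2 the log2 fold change was -8.93 for C1rb and -8.33 for C1s2, so the values were as large without that library. Without T + E2 mouse 2 it was -8.42 for C1rb and -8.20 for C1s2.

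None of the other complement genes listed had a fold change near those of C1rb and C1s2, although C1rl was also lower. The list held 12 genes of the classical pathway or related to it, among them the C1r-like C1rl and the lectin pathway genes Masp1 and Masp2. Of these 12 genes 11 passed the filter. The median log2 fold change of the 11 was 0.58 against -0.0021 for all tested genes. Among the 11, C4b was a DEG with a higher level and C1rl a DEG with a lower level, 2 of 11 beside 7.64% of all tested genes. At an adjusted p under 0.05 in edgeR, whatever the fold, 4 genes were higher and 1 lower, beside 10.4% and 9.25% of all tested genes. The 3 genes of C1q, the recognition subunit, were among the higher ones, with log2 fold changes of 0.63 for C1qa (adjusted p = 0.0428), 0.77 for C1qb (adjusted p = 0.00914) and 0.58 for C1qc (adjusted p = 0.0392). C1qb had 34.6, 31.1 and 31.6 CPM in the CON mice against 48.6, 68.6 and 48.7 CPM in the T + E2 mice. The calls of C1qa and C1qc were lost without CON mouse 2 (adjusted p = 0.108 and 0.108), CON mouse 3 (0.130 and 0.114), T + E2 mouse 2 (0.103 and 0.121) or T + E2 mouse 3 (0.0668 and 0.0691).

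C4b, a substrate of C1s, had 77.9, 63.6 and 55.9 CPM in the CON mice, compared with 139.5, 156.9 and 177.8 CPM in the T + E2 mice, with no overlap. Its log2 fold change was 1.26 (standard error 0.15, adjusted p = 0.00098 in edgeR). C4a, its near copy, had only 17 to 32 counts per mouse, and reads of C4a and C4b may be hard to tell apart, which was not tested. C2, the other substrate of C1s, had a log2 fold change of 0.69 (adjusted p = 0.0831 in edgeR) and C3, which acts downstream, of 0.47 (adjusted p = 0.083). Serping1, the inhibitor of C1r and C1s, was at 226.2 ± 30.5 CPM in the CON group against 289.6 ± 17.1 CPM in the T + E2 group (adjusted p = 0.0669 in edgeR). Masp1 and Masp2, the related proteases of the lectin pathway, had log2 fold changes of 0.12 and 0.68 with adjusted p = 0.675 and 0.541 in edgeR. C4bp, a regulator of C4, had 12 counts over all mice and was not tested.

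**Figure D4:**
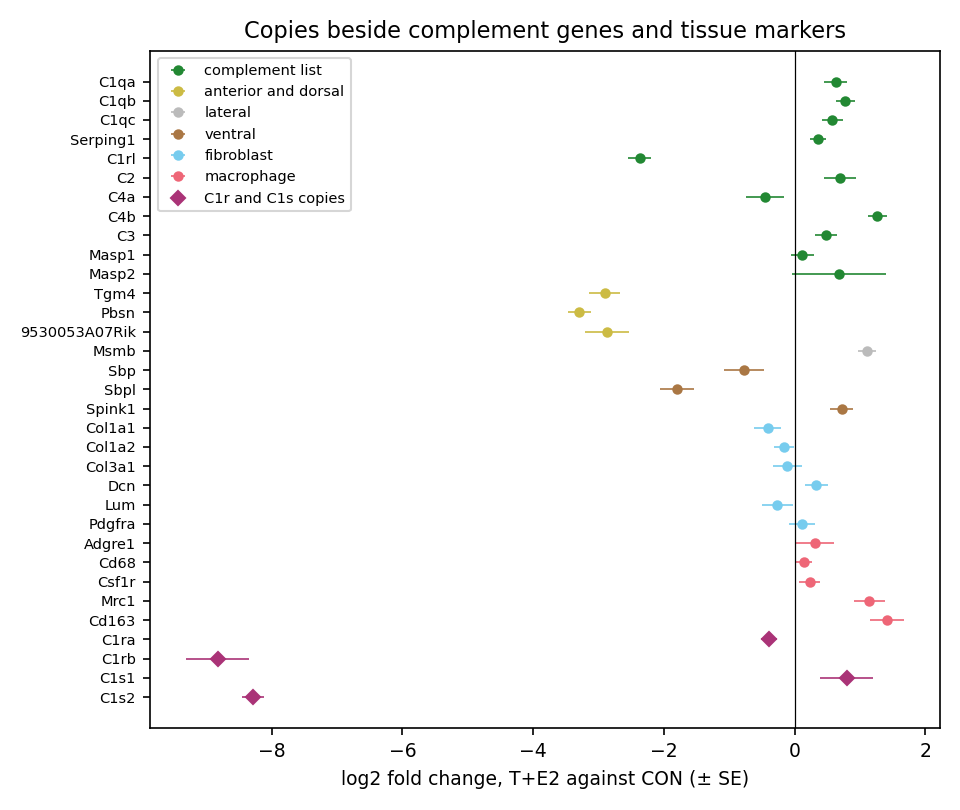
Fitted log2 fold changes, T + E2 against CON, with standard errors (horizontal axis) for the tested genes of the complement list, for markers of prostate lobes, fibroblasts and macrophages, and for the 4 copies. C1rb and C1s2 stand at -8.82 and -8.28, C1rl at -2.37, and the anterior and dorsal markers between -3.29 and -2.87.

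C1rl, which encodes a C1r-like protease, is the nearest tested gene to the cluster, ending 1.76 kb to the left of C1ra, and it shared no 50-base window with the copies. It had 11.8, 12.3 and 13.7 CPM in the CON mice, compared with 2.77, 2.31 and 2.20 CPM in the T + E2 mice. The log2 fold change was -2.37 (standard error 0.17, adjusted p = 8.95e-05 in edgeR), and it belongs to both the complement list and the neighbours described next. Per 1000 Tgm4 counts its level was 0.547 ± 0.0929 in the CON group against 0.802 ± 0.152 in the T + E2 group. Unlike C1rb and C1s2 it was thus not lower on that scale, on which Tgm4 itself was lower. The part of anterior and dorsal cells in the level of C1rl was not tested.

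Of 32 other genes within 250 kb of the cluster, 21 passed the filter and 7 had 0 counts. The lower DEGs among them were C1rl and Eno2, and Cd163 was a higher DEG, 3 of 21 beside 7.64% of all tested genes. The median log2 fold change of the 21 was -0.24, and at an adjusted p under 0.05 in edgeR 7 were lower and 1 higher, beside 9.25% and 10.4% of all tested genes. Cd163, a scavenger receptor of macrophages 182 kb to the left, had a log2 fold change of 1.41 (adjusted p = 0.00758 in edgeR). Eno2, the neuronal enolase 124 kb to the right, had 27.9, 24.8 and 21.3 CPM in the CON mice, compared with 5.53, 14.2 and 11.9 CPM in the T + E2 mice (log2 fold change -1.22, adjusted p = 0.025 in edgeR). The call of Eno2 was lost without CON mouse 1 (adjusted p = 0.0657), CON mouse 2 (0.055), T + E2 mouse 3 (0.0525) or T + E2 mouse 1, where the log2 fold change was -0.91.

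The nearest tested gene to the right of the cluster, Lpcat3, an enzyme of phospholipid remodelling 26.9 kb away, had a log2 fold change of -0.28 (adjusted p = 0.0842 in edgeR). Gm16567, annotated on the opposite strand over C1s1, had 0 counts in all mice. Within 250 kb no other tested gene had a fold change near those of C1rb and C1s2, the next lowest being C1rl at -2.37. Since C1rb and C1s2 were among the lowest of all genes tested and were chosen for it, nothing is read from that.

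**Figure D5:**
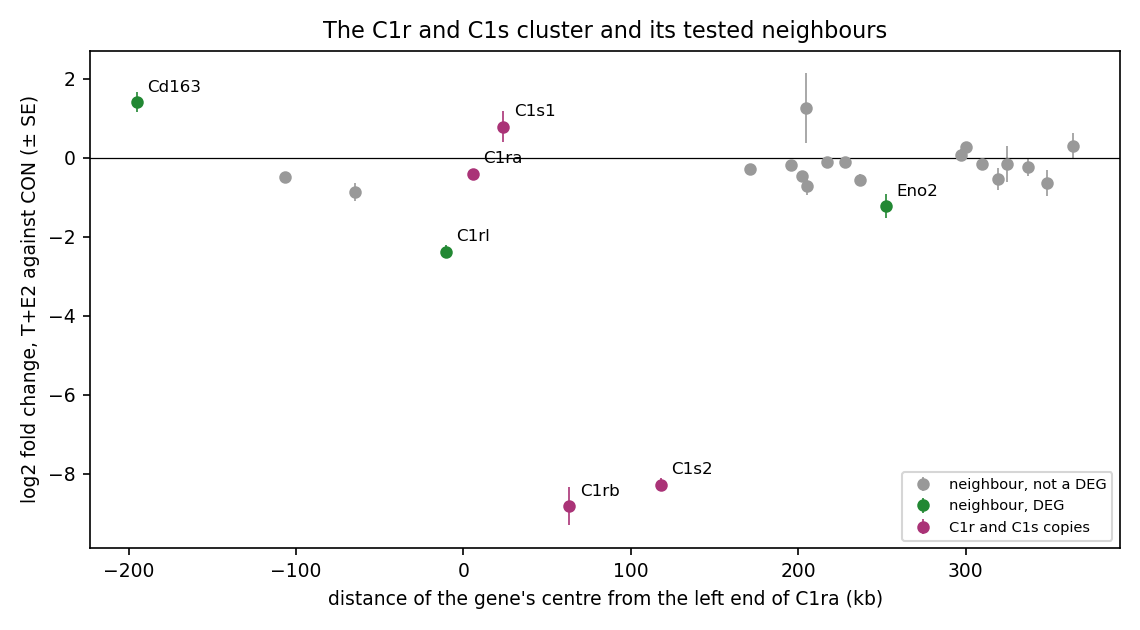
Fitted log2 fold change, T + E2 against CON (vertical axis), of the tested genes within 250 kb of the cluster against the distance of the gene centre from the left end of C1ra in kb (horizontal axis). C1rb and C1s2 stand below -8, C1ra and C1s1 at -0.40 and 0.79, and the neighbouring genes between -2.37 and 1.41.

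The genes whose profile over the 6 mice was most like those of C1rb and C1s2 lay outside the cluster and its neighbours. Likeness was the root-mean-square difference of log2 CPM, with each gene centred on its own mean, among tested genes with a mean over 1 CPM. It was 0.736 between C1rb and C1s2. For C1s2 the nearest other genes were Gm37223 (chromosome 1, 0.952), Gm10935 (chromosome 7, 0.975) and 9130019P16Rik (chromosome 6, 1.17), and for C1rb the same genes came first, at 1.30, 1.32 and 1.63. Gm37223 went from 81.1 ± 12.3 to 0.957 ± 0.556 CPM, Gm10935 from 82.0 ± 14.2 to 0.962 ± 0.570 and 9130019P16Rik from 24.6 ± 7.21 to 0.257 ± 0.237. Their log2 fold changes were -6.42, -6.43 and -6.51, and likeness on this scale follows mainly the difference between the groups. Gm10935 (chr7:28099660-28102487) lay near the anterior and dorsal marker 9530053A07Rik (chr7:28129466-28164811). Gm37223 and Gm10935 had nearly equal levels, and whether they share reads was not tested.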

How the data were processed

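RNA of mouse prostates was prepared with a TruSeq RNA kit as paired-end libraries. The deposited table holds whole-number counts per gene without normalization, and FPKM from the authors, which scale counts by gene length and library total. The submitters' processing notes name TopHat, Bowtie2 and HTSeq; versions, settings, strand, build and annotation are not given in the sources used here. The study's methods name DESeq2.

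The 4 genes, the lists of genes and the tests were chosen with earlier results of these data known. Groups came from the sample titles. Nothing beyond separate mice is stated about replicates. Counts were tested with edgeR 4.0.16 (R 4.3.3; TMM, filterByExpr with a minimum count of 10 and a minimum total of 15, glmQLFit and glmQLFTest, Benjamini-Hochberg adjustment over 15580 genes). The table was fitted whole, and again with each pair replaced by its sum. DEGs had adjusted p under 0.05 and absolute log2 fold change over 1. Standard errors were the log2 fold change over the root of F. The biological coefficient of variation was 18.0%. Named genes were the members, the complement list, neighbours within 250 kb that were DEGs, nearest or overlapping, the 3 nearest profiles, and markers. Sequences came from GENCODE M21 and RefSeq and were aligned with Biopython 1.88 (promoters: match 1, mismatch -2, gap opening -4). Fits were tested on simulated data. Alternatives used DESeq2 1.42.0, limma 3.58.1 on log2 FPKM, other scaling, filters and prior counts, and left out each mouse. Same-numbered mice of the groups were different animals and their deviations did not correlate (r = -0.052, 0.028 and 0.046), so the main fit did not pair them. Some results on marker genes and motifs are not reported here. Depth limits C1s2 most, with 9 or 10 counts per T + E2 mouse.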

Additional observations from a re-analysis of the deposited data

How the results depend on the processing

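Of 163 values recomputed under other settings, 148 moved by less than the spread between replicates or kept their count within 1.5 times. The other 15 moved. Direction was judged for log2 fold changes only, and 0 of them changed it. Leaving out 1 mouse of a group cannot move its mean share or ratio by as much as that spread. Those values therefore could not count as moved. The log2 fold change of C1s2 was -8.02 with a prior count of 2, -7.81 with limma on log2(FPKM + 0.1) and -5.91 on log2(FPKM + 1), where C1rb was at -7.99; a pseudocount draws low levels towards it by construction. The sum of C1r was at -4.99 and -4.92 with these pseudocounts, and the sum of C1s at -2.13 and -2.08. DEGs among all tested genes numbered 561 on log2(FPKM + 1), against 1191, and 1254 with DESeq2. By FPKM in place of counts, the b copy held 96.0% of C1r in the CON group against 6.87% in the T + E2 group. Of C1s it held 86.5% against 1.19%. The ratio of C1r to C1s in the CON group was 5.89 with exonic lengths, 5.82 with transcript lengths and 9.27 with unique windows, and in the T + E2 group 0.535 with transcript lengths; transcript lengths and unique windows were chosen after seeing the data.

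Leaving out each mouse in turn, the log2 fold change ranged from -0.50 to -0.33 for C1ra, -9.43 to -8.42 for C1rb, 0.55 to 1.44 for C1s1, -8.37 to -8.19 for C1s2, -4.80 to -4.60 for summed C1r and -1.42 to -1.08 for summed C1s. DEGs numbered 972 to 1152 in all, 2 to 2 in the complement list and 2 to 3 among the neighbours. The b share of C1r was 94.9 to 95.4% in the CON and 3.65 to 7.61% in the T + E2 group, and of C1s 73.4 to 84.1% and 0.543 to 0.686%. The ratio of C1r to C1s was 6.14 to 6.51 and 0.702 to 1.04. In the T + E2 group its mean was above 1 without T + E2 mouse 1 (1.03) or T + E2 mouse 3 (1.04).

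With the replicate number as a block, the log2 fold change was -0.40 for C1ra, -8.92 for C1rb, 0.92 for C1s1, -8.28 for C1s2, -4.70 for summed C1r and -1.33 for summed C1s, and 1013 genes were DEGs. The same-numbered mice share only a number. C1qa and C1qc lost their calls under this block (adjusted p = 0.0793 and 0.092 in edgeR), with total-count scaling (0.0639 and 0.0571) and in limma; their adjusted p ranged from 0.00715 to 0.130 and from 0.00876 to 0.121 over all alternatives. Serping1, C2 and C3 passed an adjusted p of 0.05 with DESeq2 (0.0292, 0.0394 and 0.0226). C4b and C1rl were DEGs in all 15 alternatives.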
